A study of Danio rerio with 16 samples.

Results

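The genes described here make up the route to heme: *alas2*, *alas1*, *alad*, *hmbsb*, *uros*, *urod*, *cpox*, *ppox*, *fech* and the mitochondrial iron carrier *slc25a37*, called mitoferrin. They were taken by gene symbol, and all 10 were found once in the gene tables, among 24753 symbols that the tables of all libraries shared. Their RNA was followed in nuclei of the zebrafish heart, in nuclei with at least 2 unique molecular identifiers (UMIs, counted RNA molecules) over the red cell genes *slc4a1a*, *rhag* and *epb41b*, against the rest. These erythroid-gated nuclei were 4004 of 37644 kept nuclei. A nucleus was kept when it had at least 500 UMIs and at most 5% of its UMIs on mitochondrial genes.

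Heme is an iron-containing ring that gives hemoglobin its ability to carry oxygen. Its synthesis starts in the mitochondrion, where 5-aminolevulinate synthase joins glycine to succinyl-CoA, runs through the cytosol and returns to the mitochondrion for its last steps, in which ferrochelatase puts iron into the ring. Vertebrates have a synthase used by red cells, *alas2*, and one used by other cells, *alas1*. Fish red cells keep their nuclei in circulation, so blood held in a heart can enter a preparation of nuclei.

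The study compared hearts of *cited4a* mutants (genotype label pt38a/pt38a) and wild-type (WT) zebrafish, each at 3 days post amputation (3dpa) of about 20% of the ventricle and uninjured (UI). The groups were mutant 3dpa, mutant UI, WT 3dpa and WT UI; the labels give neither age, sex nor the nature of the allele. Nuclei came from frozen whole hearts and were measured by 10x single-nucleus RNA sequencing of 3′ ends. The labels list 4 samples per group, but each group came as 1 matrix whose barcodes carry no sample, so each group is 1 library and the names below are the names the matrices bear.

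The 4 libraries held 12984219 to 24511414 UMIs, and 9140 mutant 3dpa, 9932 mutant UI, 10394 WT 3dpa and 8178 WT UI nuclei were kept. Gated nuclei numbered 108 in mutant 3dpa, 1298 in mutant UI, 2317 in WT 3dpa and 281 in WT UI. These were 1.18% (95% exact Clopper-Pearson interval 0.970 to 1.42), 13.1% (12.4 to 13.7), 22.3% (21.5 to 23.1) and 3.44% (3.05 to 3.85) of kept nuclei, in that order, and intervals here and below cover counting error only. The gated share was thus lower at 3dpa than in UI under the mutant labels and higher under the WT labels. Nuclei that passed only the fibroblast and epicardial gate stood the same way, at 32 in mutant 3dpa and 288 in mutant UI, against 345 in WT 3dpa and 40 in WT UI. The *cited4a* RNA itself stood at 370.1 CPM (UMIs of a gene scaled to a common total of UMIs) in mutant 3dpa, 32.6 CPM in mutant UI, 53.7 CPM in WT 3dpa and 153 CPM in WT UI, which does not check a genotype whose effect on the RNA the labels do not describe. The WT and mutant matrices were counted on gene tables of different size (25432 and 27758 genes), so genotype and gene table cannot be told apart. Genes shared by all tables held 90.8%, 90.3%, 99.96% and 99.94% of the UMIs of mutant 3dpa, mutant UI, WT 3dpa and WT UI. CPM over the shared genes were therefore scaled to a smaller part of the UMIs in the mutant libraries, which raises mutant CPM somewhat against WT. The WT pair shared 136 barcodes, of which 4 were gated in both, the mutant pair shared 133 with none gated in both, and libraries of different genotype shared 0.

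The gate was enriched for red cell RNA but was not pure. Of the 14 red cell markers measured that are not gate genes, 14, 13, 14 and 14 were higher in gated nuclei (mutant 3dpa, mutant UI, WT 3dpa, WT UI). Globin genes that the gate did not use followed it: *hbaa1* was 2.56 log2 units and *hbba1* 2.30 log2 units higher in gated nuclei (edgeR, adjusted p 1.61e-290 and 2.77e-273). Cardiomyocyte markers remained at 62713, 41316, 61100 and 102240 summed CPM in the gated nuclei of mutant 3dpa, mutant UI, WT 3dpa and WT UI, against 63193, 44782, 70584 and 98774 CPM in their rest. Of the gated nuclei, 62, 685, 1271 and 226 in that order also passed the gate of another cell type. Thrombocyte markers were higher in gated nuclei for 6, 7, 7 and 6 of 7 genes, with sums of 341, 417, 389 and 169.9 CPM in gated nuclei against 154, 255, 280.4 and 88.5 CPM in the rest. Fibroblast and epicardial markers were higher for 4, 7, 8 and 7 of 9 genes in the same order of libraries. Endothelial markers were higher for 7, 6, 4 and 8 of 9. The part of these other cell types in the values of gated nuclei was not tested beyond the values given below for nuclei that passed the erythroid gate alone.

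Of the 10 heme synthesis genes, 9 were higher in erythroid-gated nuclei than in the rest, by 2.07-fold to 4.13-fold, and *alas1* was the one that was not called. The test was edgeR's quasi-likelihood fit on 8 sums of UMIs, the gated nuclei and the rest of each of the 4 libraries, with the library as a block and Benjamini-Hochberg adjustment over 18705 genes. Over all genes tested, 2.87% were called higher and 3.52% lower at adjusted p under 0.05. No gene of the route was called lower by edgeR, and *alas1*, the only one with a negative fold change, had an unadjusted p of 0.482. The median log2 fold change was 1.39 over the 10 genes and -0.06 over all genes tested. The 4 libraries differ in genotype and injury label, and the fit shared 1 estimate of the spread over all genes. The p-values therefore rest on that shared estimate over 4 unlike libraries, not on a gene's own spread between them. At a given fold change they are smaller for more deeply counted genes, and they do not come from replicates of a condition. DESeq2 called 5 of the 10 genes higher, and a fit without the library block called 0 of 16798 genes, 234 of them with an unadjusted p under 0.05. Without TMM scaling 82.3% of all calls were in the higher direction, against 44.9% with it, and the calls of the 10 genes were the same under both.

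**Figure D1:**
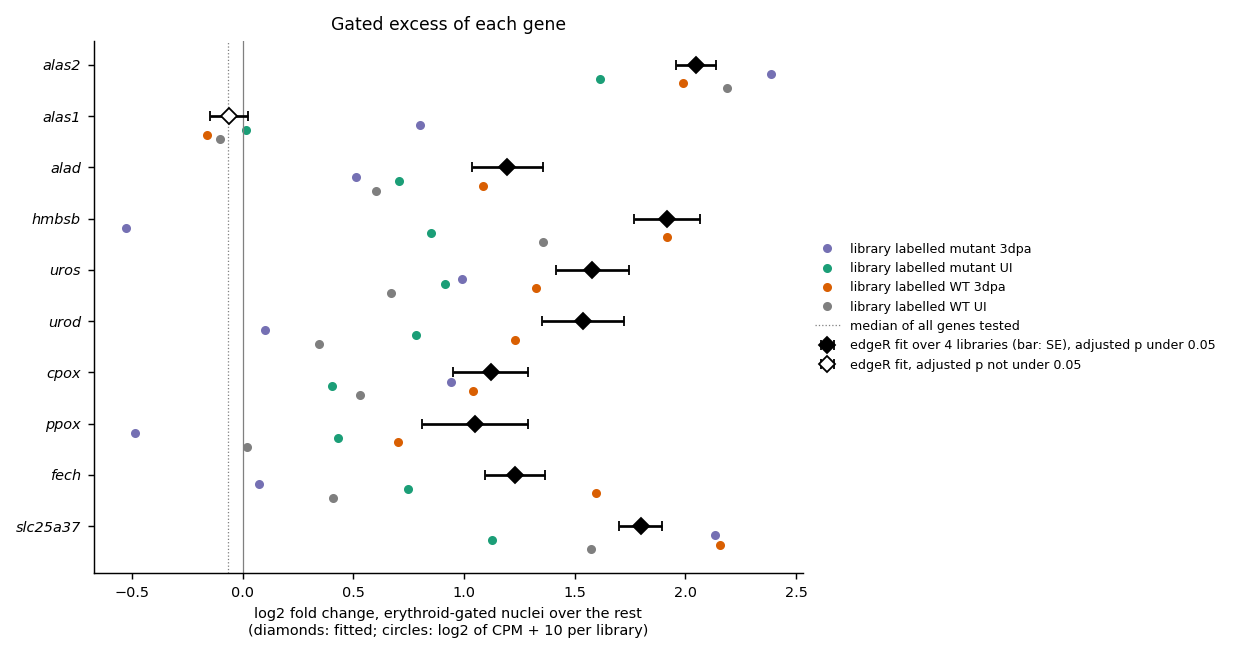
Log2 fold change of each gene in erythroid-gated nuclei over the rest. Diamonds are the edgeR fit over 4 libraries with bars of 1 SE (filled where adjusted p was under 0.05), circles are the log2 ratio of CPM + 10 in each library, and the dotted line is the median of all genes tested; 9 diamonds lie between 1.05 and 2.05, and *alas1* lies at -0.06.

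Of the 2 synthases of the first step, *alas2* followed the gate and *alas1* did not. *alas2* (ENSDARG00000038643) had 225, 524, 463 and 102 CPM in the gated nuclei of mutant 3dpa, mutant UI, WT 3dpa and WT UI, against 35.0, 165, 109 and 14.5 CPM in their rest. In each library the gated value lay above the rest, although the rest of mutant UI and of WT 3dpa lay above the gated nuclei of WT UI. The excess was 4.13-fold (log2 2.05, SE 0.0909, adjusted p 1.28e-108), and 0.107% of all genes tested had a larger one. In single libraries it was 6.44-fold in mutant 3dpa, 3.19-fold in mutant UI, 4.24-fold in WT 3dpa and 7.01-fold in WT UI, so the 2 libraries with the most gated nuclei had the smaller ratios.

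*alas1* (ENSDARG00000021059) had 389, 166, 188 and 133 CPM in the gated nuclei of mutant 3dpa, mutant UI, WT 3dpa and WT UI, against 219, 164, 212 and 143 CPM in their rest. The 2 sets of nuclei overlapped, and neither was higher throughout. The fitted log2 fold change was -0.06 (SE 0.0858, adjusted p 0.826), with a 95% interval of -0.33 to 0.21 on 3 residual degrees of freedom. Only in mutant 3dpa did the counting intervals lie apart with the gated nuclei higher, at 389 CPM (299.9 to 497) on 64 UMIs, against 219 CPM (210.0 to 228) in the rest. In WT 3dpa they lay apart the other way, at 188 CPM (176 to 201) in gated nuclei, against 212 CPM (204 to 219.8) in the rest.

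The balance of the 2 synthases moved with the gate. There were 0.578, 3.16, 2.45 and 0.767 *alas2* UMIs for each *alas1* UMI in the gated nuclei of mutant 3dpa, mutant UI, WT 3dpa and WT UI. The rest had 0.160, 1.01, 0.515 and 0.102. This ratio of 2 genes compares sets of nuclei and not the amounts of the 2 proteins, since UMIs are not scaled by length or capture.

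Shares of nuclei with at least 1 *alas2* UMI were also higher in gated nuclei than in the rest of each library. After thinning each nucleus to 500 UMIs, the share was 16.7% in gated nuclei and 2.004% in the rest of mutant 3dpa, 22.8% and 8.86% in mutant UI, 27.7% and 7.96% in WT 3dpa, and 9.96% and 0.836% in WT UI. Unthinned, the pairs were 27.8% and 3.57%, 35.9% and 15.1%, 48.0% and 14.9%, and 30.2% and 2.51%, at median depths of 1030.5 and 950.0, 964.5 and 974, 1077 and 1044, and 1915 and 1721 UMIs. Nuclei that passed the cardiomyocyte gate alone, where a red cell gene should be absent, had *alas2* in 0.917%, 5.89%, 3.84% and 0.497% of thinned nuclei (mutant 3dpa, mutant UI, WT 3dpa, WT UI). In unthinned cardiomyocyte nuclei, of median depth 1436, 1502, 2278 and 1995 UMIs, these shares were 3.04%, 14.6%, 12.6% and 2.24%. Some *alas2* RNA was thus counted in cardiomyocyte-gated nuclei of each library. These shares were larger in mutant UI and WT 3dpa, the 2 libraries with the most gated nuclei, and the source of this RNA was not tested. For *alas1* the thinned shares were 12.96% in gated nuclei and 8.78% in the rest of mutant 3dpa, 6.39% and 6.88% in mutant UI, 6.56% and 8.60% in WT 3dpa, and 6.76% and 6.33% in WT UI.

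**Figure D2:**
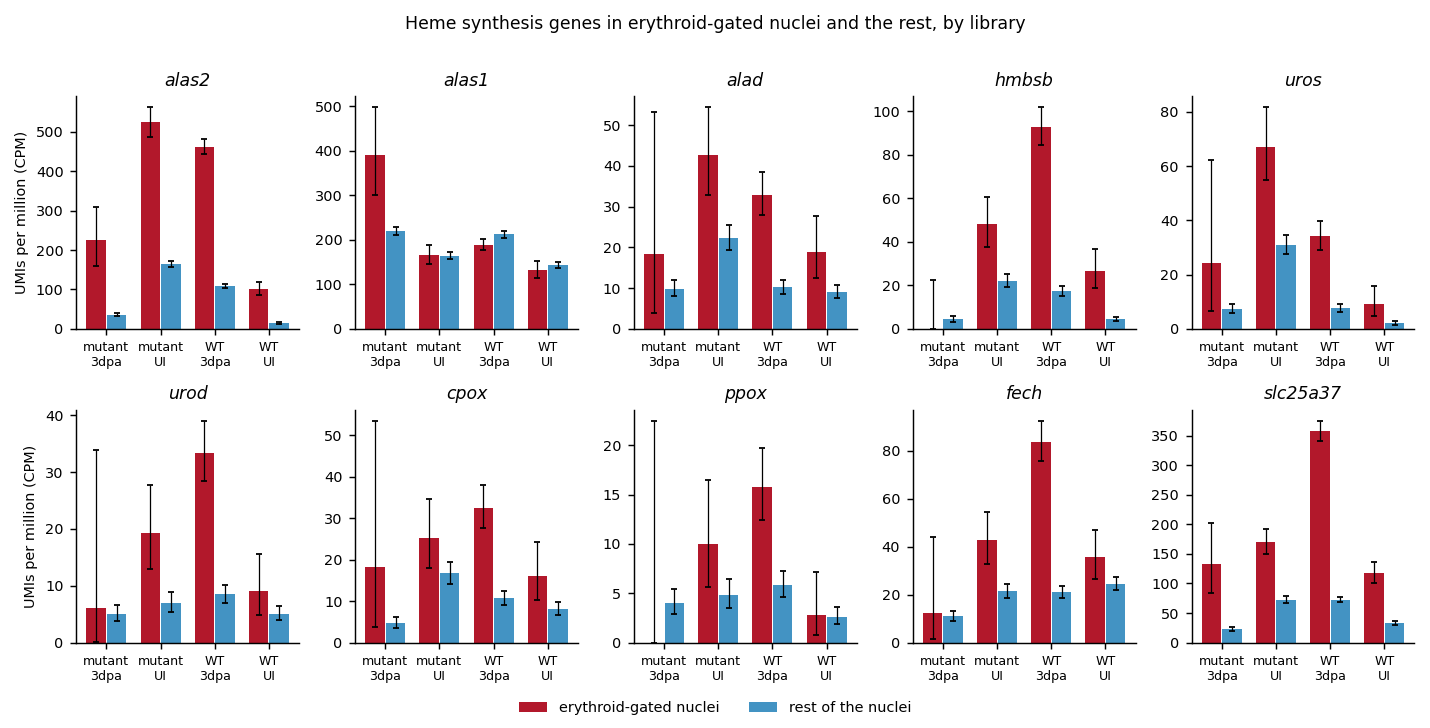
CPM of each of the 10 genes in erythroid-gated nuclei (red) and the rest (blue) of each library, with 95% exact Poisson intervals for counting error. *alas2* and *slc25a37* are higher in the gated nuclei of each of the 4 libraries, *alas1* is near the rest except in mutant 3dpa, and *hmbsb* and *ppox* had 0 UMIs in the 108 gated nuclei of mutant 3dpa.

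The 4 cytosolic steps that follow were called higher in gated nuclei. The *alad* gene (ENSDARG00000100372) encodes the enzyme that joins 2 molecules of aminolevulinate into porphobilinogen. It had 18.3, 42.6, 33.0 and 19.0 CPM in the gated nuclei of mutant 3dpa, mutant UI, WT 3dpa and WT UI, against 9.82, 22.2, 10.2 and 9.05 CPM in their rest. Its log2 fold change was 1.19 (SE 0.160, adjusted p 1.40e-11), and the mutant 3dpa value rests on 3 UMIs.

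*hmbsb* (ENSDARG00000055991), which encodes a hydroxymethylbilane synthase that links porphobilinogens into a chain, had 0, 47.9, 92.7 and 26.7 CPM in the gated nuclei of mutant 3dpa, mutant UI, WT 3dpa and WT UI, against 4.42, 22.1, 17.2 and 4.32 CPM in their rest. Gated nuclei were higher in 3 libraries. In mutant 3dpa the gated count was 0, and 3 counts there would be 18.3 CPM, which is above the rest. Across the libraries the log2 fold change was 1.92 (SE 0.150, adjusted p 8.14e-35), the largest after *alas2*. Its paralog *hmbsa* had a log2 fold change of 0.34 (adjusted p 0.276). The sources used here do not say how reads that match both paralogs were counted.

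*uros* (ENSDARG00000027491) encodes the synthase that closes the chain into the ring uroporphyrinogen III. It had 24.3, 67.2, 34.2 and 9.13 CPM in the gated nuclei of mutant 3dpa, mutant UI, WT 3dpa and WT UI, against 7.27, 31.0, 7.67 and 2.03 CPM in their rest, a log2 fold change of 1.58 (SE 0.165, adjusted p 2.22e-19). Gated nuclei lay above the rest in each library, and mutant UI was high in both sets.

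*urod* (ENSDARG00000006818), the decarboxylase that follows, had 6.08, 19.3, 33.4 and 9.13 CPM in the gated nuclei of mutant 3dpa, mutant UI, WT 3dpa and WT UI, against 5.01, 7.02, 8.47 and 5.06 CPM in their rest. The log2 fold change was 1.54 (SE 0.185, adjusted p 1.57e-14). The mutant 3dpa value is 1 UMI, and leaving out WT 3dpa took the adjusted p of *urod* to 0.0607.

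The last 3 enzymes work in or on the mitochondrion, and they too were called higher. *cpox* (ENSDARG00000062025), coproporphyrinogen oxidase, had 18.3, 25.3, 32.5 and 16.2 CPM in the gated nuclei of mutant 3dpa, mutant UI, WT 3dpa and WT UI, against 4.71, 16.7, 10.7 and 8.10 CPM in their rest. Its log2 fold change was 1.12 (SE 0.169, adjusted p 3.73e-09). *ppox* (ENSDARG00000102167), protoporphyrinogen oxidase, was the most thinly counted gene of the route, with 301 UMIs over all kept nuclei. It had 0, 9.98, 15.8 and 2.81 CPM in the gated nuclei of mutant 3dpa, mutant UI, WT 3dpa and WT UI, against 4.03, 4.82, 5.84 and 2.63 CPM in their rest. The log2 fold change of *ppox* was 1.05 (SE 0.240, adjusted p 0.000565). In CPM its gated nuclei were 2.07-fold higher in mutant UI, 2.70-fold in WT 3dpa and 1.07-fold in WT UI.

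*fech* (ENSDARG00000003462), the ferrochelatase that completes heme, had 12.2, 42.6, 83.8 and 35.8 CPM in the gated nuclei of mutant 3dpa, mutant UI, WT 3dpa and WT UI, against 11.1, 21.4, 21.0 and 24.6 CPM in their rest. Its log2 fold change was 1.23 (SE 0.135, adjusted p 1.49e-17). The ratio in CPM ran from 1.096 in mutant 3dpa, on 2 gated UMIs, to 3.98 in WT 3dpa. Without WT 3dpa, *fech*, *cpox* and *ppox* were no longer called, at adjusted p 0.0876, 0.230 and 0.819.

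*slc25a37* (ENSDARG00000073743) encodes mitoferrin 1, which brings iron into the mitochondrion. It had 134, 170.4, 357 and 118 CPM in the gated nuclei of mutant 3dpa, mutant UI, WT 3dpa and WT UI, against 22.8, 72.7, 72.3 and 33.0 CPM in their rest. Gated nuclei were 5.87-fold, 2.34-fold, 4.94-fold and 3.57-fold higher in that order, and the gated values of all 4 libraries lay above the rest of all 4. The fitted log2 fold change was 1.80 (SE 0.0980, adjusted p 7.66e-72). *slc25a28*, which encodes mitoferrin 2, the carrier of other cells, had a log2 fold change of -0.16 (adjusted p 0.369). Thinned shares of nuclei with a mitoferrin 1 UMI were 9.26% in gated nuclei and 1.16% in the rest of mutant 3dpa, 8.71% and 3.58% in mutant UI, 21.1% and 4.77% in WT 3dpa, and 9.96% and 1.91% in WT UI. The cardiomyocyte gate alone gave 1.09%, 2.34%, 2.94% and 1.45% for *slc25a37* in the same order of libraries.

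The levels of *alas2* followed the number of gate UMIs in a nucleus, not only the threshold of 2. In WT 3dpa, *alas2* had 92.6 CPM in nuclei with 0 gate UMIs, 149 CPM with 1, 244 CPM with 2, 459.9 CPM with 3 to 4 and 627 CPM with 5 or more. The same steps in mutant UI were 149, 204, 372, 535 and 1188 CPM. In WT UI they were 11.9, 37.4, 94.9, 106 and 103 CPM, so the increase ended at 2 gate UMIs there, and the 67 nuclei with 5 or more had a median depth of 2351 UMIs, against 1709 with 0. In mutant 3dpa they were 31.2, 82.5, 151 and 372 CPM up to 3 to 4 gate UMIs, where 24 nuclei remained. Intervals of neighbouring steps overlapped from 2 gate UMIs upward in WT UI and from 1 upward in mutant 3dpa. *alas1* showed no such increase in WT 3dpa, with 211, 215, 192, 171 and 195 CPM over the same steps, and in mutant 3dpa it stood at 221, 197, 389 and 217 CPM up to 3 to 4 gate UMIs. Gate UMIs depend on the depth of a nucleus as well as on its content, so the steps are a description.

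**Figure D3:**
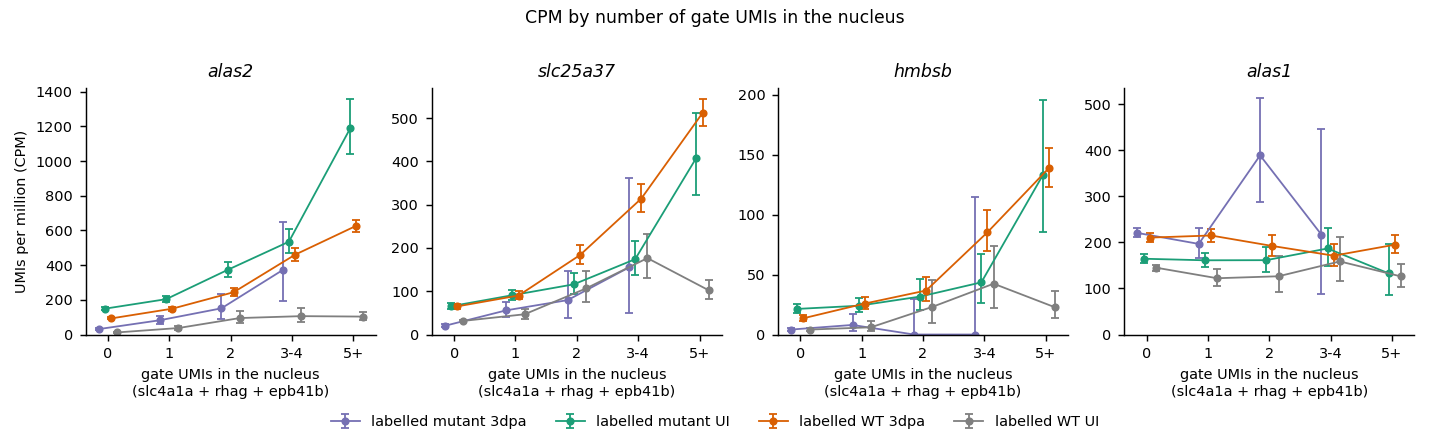
CPM of *alas2*, *slc25a37*, *hmbsb* and *alas1* in nuclei grouped by their UMIs over the 3 gate genes, for each library, with 95% exact Poisson intervals; steps with under 20 nuclei are left out. In WT 3dpa and mutant UI the *alas2* level is higher at every further step, while *alas1* in WT 3dpa stays between 171 and 215 CPM.

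Gated nuclei that passed no other gate were also set against the rest. This filter took nuclei with RNA of other cells out of the gated side only, and the rest kept its own. Less RNA of other cells and larger excesses of red cell genes thus follow in part from the filter. The nuclei left numbered 46 in mutant 3dpa, 613 in mutant UI, 1046 in WT 3dpa and 55 in WT UI. Against the same rest, 9 of the 10 genes were again called higher, where 3.47% of 18135 genes tested were. Of all calls 29.6% were in the higher direction, against 44.9% without this filter. The log2 fold change was 3.02 for *alas2*, 3.01 for *hmbsb*, 2.73 for *slc25a37*, 2.61 for *uros* and 2.50 for *urod*. It was 2.17 for *fech*, 2.12 for *ppox*, 2.04 for *alad* and 1.86 for *cpox*. The value for *alas1* was -0.74 (SE 0.314, adjusted p 0.116), below 0 and not called. Removing nuclei that passed another gate also left the gated nuclei shallower, at medians of 594.5, 667, 701.5 and 733 UMIs in the order above.

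Across classes of nuclei that passed 1 gate each, *alas2* was highest in the erythroid class of each library. It stood there at 612, 988, 1241 and 495 CPM (mutant 3dpa, mutant UI, WT 3dpa, WT UI). In the cardiomyocyte class the values were 22.0, 115.2, 59.0 and 10.998 CPM, and in the thrombocyte class 41.0, 382, 228 and 107 CPM. The T and NK class, of 26 nuclei in WT 3dpa, had 609 CPM. *alas1* had 339.7, 165, 123 and 158 CPM in the erythroid class, against 235, 163, 257 and 149 CPM in the cardiomyocyte class. Its highest class was the erythroid one in mutant 3dpa and WT UI, the endothelial one in mutant UI (255 CPM) and the cardiomyocyte one in WT 3dpa. In mutant 3dpa the erythroid value (10 UMIs, 163 to 625 CPM) overlapped the fibroblast and epicardial one (8 UMIs, 144 to 659 CPM). In WT UI it (7 UMIs, 63.4 to 325 CPM) overlapped the cardiomyocyte one (142 to 157 CPM). The endothelial value of mutant UI rests on 19 UMIs.

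Of the 10 genes, 7, 8, 9 and 10 were highest in the erythroid class in mutant 3dpa, mutant UI, WT 3dpa and WT UI. With nuclei that passed several gates counted in each class, these numbers were 5, 7, 8 and 7. In mutant 3dpa, *uros*, *urod*, *cpox* and *fech* had 1 to 3 UMIs in the erythroid class, as *alad* and *ppox* had in WT UI. Besides *alas1*, the exceptions were *cpox*, highest in 23 neutrophil-gated nuclei of mutant UI on 1 UMI, and *alad*, *hmbsb* and *ppox* in mutant 3dpa. The last 2 had 0 UMIs in the 46 erythroid nuclei of mutant 3dpa. *hmbsb* had 85.1, 282 and 270.2 CPM in the erythroid class of mutant UI, WT 3dpa and WT UI. The order of the classes was not tested, since a class is 1 sum of nuclei per library. The share of all genes that were highest in the erythroid class is not given, so these counts stand without a comparison. In a class of few nuclei 1 UMI can rank first, as for *ppox* in WT UI (22.5 CPM, 0.570 to 125).

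**Figure D4:**
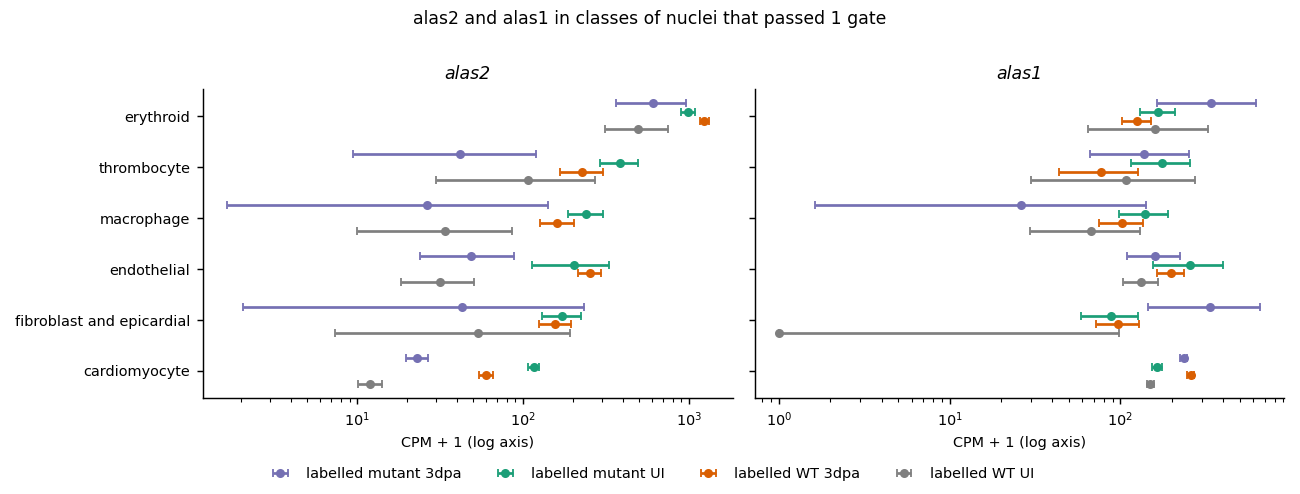
CPM + 1 (log axis) of *alas2* and *alas1* in 6 classes of nuclei that passed 1 gate only, with 95% exact Poisson intervals, coloured by library. For *alas2* the erythroid class has 495 to 1241 CPM, above the 5 other classes drawn in the same library, while *alas1* is highest in the cardiomyocyte class of WT 3dpa, at 257 CPM.

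Likeness was measured as Pearson's r of log2(CPM + 10) over 26 sums of a class in a library, which share libraries and depth and are given as a description. The genes most like *alas2* were *si:ch211-5k11.8* (r 0.95), *si:ch211-250g4.3* (0.94), *ank1a* (0.91), which encodes an ankyrin of the red cell membrane, *slc4a1a* (0.90), the anion exchanger of red cells and a gate gene, and *si:ch211-262i1.3* (0.88). Since the erythroid class was chosen by the gate genes, the value for *slc4a1a* follows in part from how the classes were made. Within the route, *hmbsb* (0.75), *uros* (0.72) and *slc25a37* (0.70) were nearest to *alas2*, *cpox* was at 0.41 and *alas1* at 0.20. The genes most like *alas1* were *kdm3b* (0.83), *hadhaa* (0.75), *kat6b* (0.74), *ubtfl* (0.72) and *cpt1aa* (0.72); *hadhaa* and *cpt1aa* encode enzymes of mitochondrial fatty acid use.

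Genes around the route were read from the same fit, list by list. Of 17 tested mitochondrial carriers and helpers of heme synthesis (19 written), 3 were higher and 0 lower by edgeR. One gene with a negative value, *cox10*, which starts the making of heme a, had an unadjusted p under 0.05 (log2 -0.25, adjusted p 0.0736). Among them were *slc25a39*, a mitochondrial glutathione carrier (log2 0.93, adjusted p 2.44e-09), and the mitochondrial transporter *abcb10* (0.42, adjusted p 0.0242). The median of this list was 0.02. *slc25a38b*, whose mammalian counterpart carries glycine for the first step, had a log2 fold change of -0.13 (adjusted p 0.858). Of 11 iron-sulfur cluster genes (13 written), *glrx5* (0.59, 0.00934) and *isca1* (0.52, 0.0478) were higher, the chaperone *hspa9* was lower (-0.30, 0.0244), and the median was -0.02.

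Iron uptake and storage genes were higher in 5 of 14 tested (18 written), with a median of 0.11. They were the transferrin receptors *tfr2* (log2 1.89, adjusted p 1.45e-15) and *tfr1a* (1.23, 4.86e-37), the ferritin heavy chain *fth1a* (1.27, 4.61e-46), the iron importer *slc11a2* (0.67, 1.43e-05) and *ncoa4* (0.66, 1.06e-11), which takes ferritin to lysosomes. The second transferrin receptor 1 gene, *tfr1b*, had -0.20 (adjusted p 0.509). Of 18 genes of heme breakdown, export and sensing (22 written), the biliverdin reductase *blvrb* (1.49, 5.71e-19), the heme-regulated kinase *eif2ak1* (1.33, 7.24e-14) and the heme-binding *hebp2* (1.04, 0.0266) were higher, and the median was 0.16. The heme oxygenase *hmox1a* had -0.17 (adjusted p 0.592).

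Erythroid transcription factors were higher in 7 of 16, with a median of 0.47. The largest values were those of *klf1* (1.83, adjusted p 9.31e-31), *gfi1b* (1.62, 1.76e-17) and *gata1a* (1.56, 2.60e-18), and the smallest called were *sox6* (0.85, 1.46e-22) and *lmo2* (0.81, 0.00417). Red cell membrane and enzyme genes were higher in 12 of 18 tested (21 written), led by the carbonic anhydrase *cahz* (2.29, adjusted p 9.15e-148), *ank1a* (1.97, 6.45e-124) and the Rh protein gene *rhd* (1.84, 6.13e-47), with *kel* (1.21, 3.60e-26) and *sptb* (0.72, 3.97e-16) the smallest called, and a median of 1.53. *bpgm* of that list, which makes bisphosphoglycerate in mammalian red cells, was lower (-0.36, 0.00496). The lists were written with earlier results of these data known, *gata1a* stands in 2 of them, and nothing particular to a list is drawn from these counts.

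**Figure D5:**
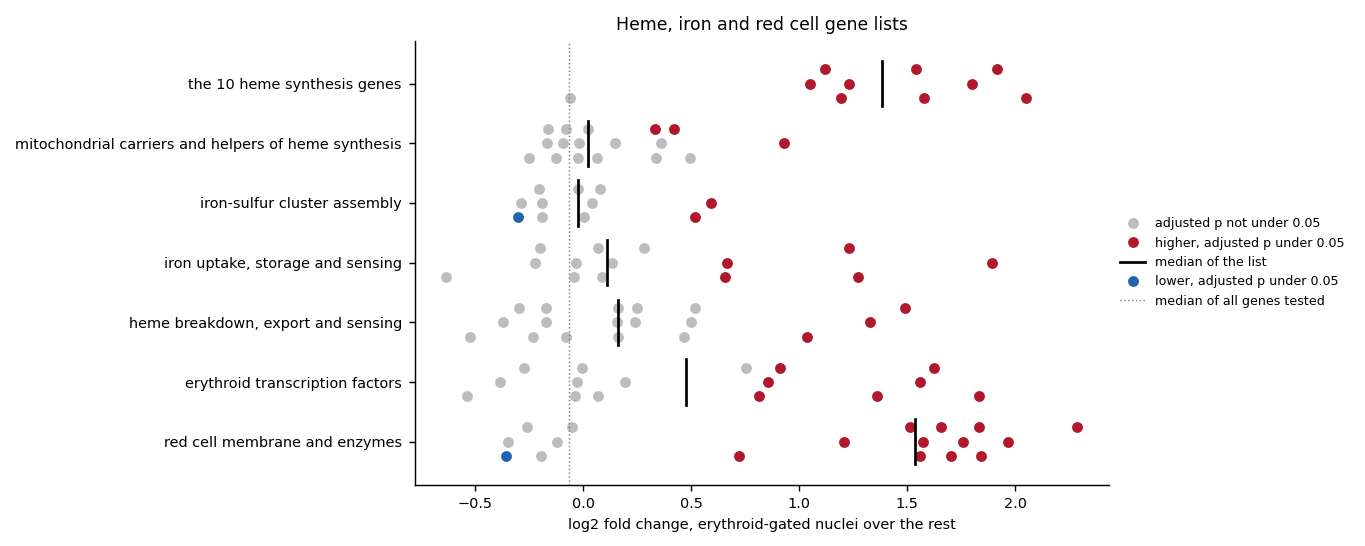
Log2 fold change in erythroid-gated nuclei over the rest for each tested gene of the route and of 6 lists, coloured by call; black bars are list medians and the dotted line is the median of all genes tested (-0.06). The route (median 1.39) and the red cell genes (1.53) lie to the right, and the lists of carriers, iron-sulfur, iron and heme breakdown genes have medians between -0.02 and 0.16.

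Within the gated nuclei, levels were set between libraries without a test, since each group is 1 library. A gene was called at least 2-fold different on the scale of log2(CPM + 10), which understates the change of low genes. Each library enters 2 of the 4 comparisons, so these are not independent of each other. Fewer red cells among the gated nuclei and less RNA per red cell cannot be told apart.

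At 3dpa against UI, the 2 genotype labels gave opposite directions for 8 of the 10 genes. The gated share and the number of fibroblast and epicardial nuclei, given above, also ran in opposite directions. The labels were used as given, and whether the 2 mutant matrices bear the right ones was not tested. The exceptions were *alas1* and *ppox*, whose direction is unknown where mutant 3dpa had 0 UMIs. The median over all genes measured also had opposite signs, at -0.32 under the mutant labels and 0.22 under the WT labels. The share of all genes with opposite directions is not given. Under the mutant labels *cpox* (-0.32) and *slc25a37* (-0.33) lay near that median. There the counting intervals of *alad*, *uros*, *urod*, *cpox*, *fech* and *slc25a37* overlapped. Under the mutant labels, 4 of the 10 genes were at least 2-fold lower at 3dpa, where 17.9% of 12002 genes measured were, and 1 was at least 2-fold higher, where 3.92% were. The lower ones were *hmbsb*, *fech*, *alas2* and *uros*, and the higher one was *alas1*. *alas2* had 225 CPM (158 to 310.3) in mutant 3dpa, against 524 CPM (488 to 562) in mutant UI, a log2 ratio of -1.18. *hmbsb* had 0 CPM on 0 UMIs in mutant 3dpa, against 47.9 CPM (37.5 to 60.3) in mutant UI, which is 2.63-fold lower in CPM when set to 3 counts. The counting interval of its 0 UMIs reached 22.4 CPM, so the fold could be smaller. *fech* had 12.2 CPM (1.47 to 44.0) on 2 UMIs in mutant 3dpa, against 42.6 CPM (32.8 to 54.4) in mutant UI, and *uros* had 24.3 CPM (6.63 to 62.3) on 4 UMIs, against 67.2 CPM (54.7 to 81.7), so the counting intervals of both overlapped. The median log2 ratio over the 10 genes was -0.95, or -0.88 with *hmbsb* and *ppox* at 3 counts, and -0.32 over all genes measured.

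Under the WT labels, 7 of the 10 genes were at least 2-fold higher at 3dpa, where 4.18% of 17503 genes measured were, and 0 were at least 2-fold lower, where 0.788% were. *alas2* had 463 CPM (444 to 482) in WT 3dpa, against 102 CPM (85.9 to 119.8) in WT UI, a log2 ratio of 2.08. The ratio was 1.52 for *slc25a37*, 1.48 for *hmbsb*, 1.21 for *uros*, 1.18 for *urod*, 1.03 for *fech* and 1.01 for *ppox*. *cpox* (0.70), *alad* (0.57) and *alas1* (0.48) stayed under 2-fold, with counting intervals apart. The median was 1.11 over the 10 genes and 0.22 over all genes measured, or 0.10 with TMM scaling.

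The gate genes themselves had ratios of the same sign. Under the mutant labels *slc4a1a*, *rhag* and *epb41b* had log2 ratios of -0.92, -0.38 and -0.30 at 3dpa against UI, and the cardiomyocyte gene *ttn.2* had 0.51. There *rhag* and *epb41b* lay near the median over all genes measured (-0.32), and their counting intervals overlapped. Under the WT labels the gate genes had 1.63, 1.36 and 1.28, and *ttn.2* had -0.73. Their part in the ratios of the heme genes was not tested as a cause. When gated nuclei that passed another gate were removed, 3 of the 10 genes stayed at least 2-fold higher in WT 3dpa than in WT UI. The ratios of *alas1* (-0.33), *cpox* (-0.28), *uros* (-0.20) and *urod* (-0.14) changed sign. *hmbsb* then had 282 CPM (247 to 321) in WT 3dpa, against 270.2 CPM (140 to 472) in WT UI, with overlapping intervals.

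Mutant against WT gave opposite directions in the 2 injury states for the 8 genes other than *alas1* and *ppox*. So did the median over all genes measured, at -0.34 at 3dpa and 0.27 in UI. The share of all genes with opposite directions is not given. These directions come from the same gated sums as those of 3dpa against UI, so they are not a second result. Of the 8, only *alas2*, *hmbsb* and *slc25a37* had counting intervals apart in both states. How many of all genes had such intervals is not given, and deeply counted genes have narrower ones relative to their level. At 3dpa, 6 of the 10 genes were at least 2-fold lower in mutant nuclei, where 14.1% of 17026 genes measured were, and *alas1* was the 1 at least 2-fold higher, where 4.42% were. With genes at 0 UMIs set to 3 counts, 5 were lower, since *ppox* then lost its place. *slc25a37* had 134 CPM (83.9 to 203) in mutant 3dpa, against 357 CPM (341 to 375) in WT 3dpa, a log2 ratio of -1.35. *hmbsb*, with 0 UMIs in mutant 3dpa, was 5.08-fold lower in CPM than the 92.7 CPM (84.3 to 102) of WT 3dpa when set to 3 counts. The counting interval of its 0 UMIs reached 22.4 CPM, so the fold could be smaller. *fech* had 12.2 CPM (1.47 to 44.0) in mutant 3dpa, against 83.8 CPM (75.8 to 92.3) in WT 3dpa, and *urod* had 6.08 CPM (0.154 to 33.9) on 1 UMI, against 33.4 CPM (28.4 to 38.9). *alas1* had 389 CPM (299.9 to 497) in mutant 3dpa, against 188 CPM (176 to 201) in WT 3dpa, a log2 ratio of 1.01. The median over the 10 genes was -1.18, or -0.81 with zeros at 3 counts, and -0.34 over all genes measured. Of the 6 lower genes, *alas2* was near the cut at -1.01, and the counting intervals of *urod* and *ppox* overlapped. The gate genes *slc4a1a*, *rhag* and *epb41b* stood at -0.93, 0.02 and 0.15, and *ttn.2* at -0.21. The globin genes *hbaa1*, *hbba1*, *hbaa2* and *hbba2* stood at 1.36, 1.05, -0.54 and 0.09. The part of these in the ratios of the heme genes was not tested.

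In uninjured hearts, 2 of the 10 genes were at least 2-fold higher in mutant nuclei, where 9.37% of 13640 genes measured were, and 0 were at least 2-fold lower, where 3.66% were. *alas2* had 524 CPM (488 to 562) in mutant UI, against 102 CPM (85.9 to 119.8) in WT UI, a log2 ratio of 2.26. *uros* had 67.2 CPM (54.7 to 81.7) in mutant UI, against 9.13 CPM (4.86 to 15.6) in WT UI, a log2 ratio of 2.01. The other 8 lay between 0.20 for *fech* and 0.86 for *alad*, with a median of 0.63 over the 10 genes and 0.27 over all genes measured, or 0.03 with TMM scaling. The gate genes *slc4a1a*, *rhag* and *epb41b* stood beside these at 1.62, 1.76 and 1.73, and *ttn.2* at -1.45; the part of this in the ratios of *alas2* and *uros* was not tested. With gated nuclei that passed another gate removed, 0 of the 10 genes were at least 2-fold higher in mutant UI and 3 were lower.

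The size of the gated excess itself was tested between genotypes and between injury states, with terms added to the same fit after the data were seen (2 residual degrees of freedom). *hmbsb* was called, where 9 of 18705 genes (0.0481%) were. Its excess was smaller under the mutant labels, by a log2 difference of -1.44 (edgeR, SE 0.325, adjusted p 0.0299). Like those of the main fit, this p-value rests on the spread shared over all genes. It does not use the spread of *hmbsb* between the libraries of a genotype, which differ in injury label and are not replicates. At an unadjusted p under 0.05 the excess of 5 of the 10 genes differed by genotype, as it did for 763 of 18705 genes in either direction. Under the mutant labels it was smaller for *alas2*, *hmbsb*, *uros* and *slc25a37*, and larger for *alas1* (log2 difference 0.41). In CPM the excess of *hmbsb* was 2.17-fold in mutant UI, 5.40-fold in WT 3dpa and 6.17-fold in WT UI, and mutant 3dpa had 0 gated UMIs. The call held without mutant 3dpa (adjusted p 0.0334) and was lost without mutant UI (0.362), WT 3dpa (0.215) or WT UI (1). The log2 difference was -1.57 without WT 3dpa and -1.58 without WT UI, and without mutant UI the mutant side was 1 library with 0 gated UMIs. None of the other 9 genes differed by genotype at adjusted p under 0.05: *uros* (-0.995, adjusted p 0.713) and *slc25a37* (-0.65, adjusted p 0.565) came nearest. Between 3dpa and UI no gene of the route was called by edgeR, where 1 of 18705 genes was (0.00535%). At an unadjusted p under 0.05, 5 of the 10 genes had a larger excess at 3dpa, where 645 of 18705 genes differed in either direction, led by *fech* (1.08, adjusted p 0.519) and *slc25a37* (0.80, adjusted p 0.519).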

How the data were processed

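The authors deposited raw UMI counts per gene and barcode, 1 matrix per group, made with Cell Ranger 7.0.0 per the file headers. The submitters' processing notes name GRCz11, R 4.2.0 and Seurat 4.3.0. The sources used here do not say how introns were counted or cells called.

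Kept nuclei had 500 or more UMIs with 5% or less on mitochondrial genes, and CPM were computed over 24753 symbols shared by all tables. Scrublet (scanpy 1.11.5) marked 0 doublets automatically, so it had not worked and none were removed; removing the highest 6% of scores was an alternative. UMIs were summed over gated nuclei and the rest of each library and tested with edgeR 4.0.16 (R 4.3.3; glmQLFTest, TMM, library block, 3 residual degrees of freedom). Its prior degrees of freedom came out infinite, so a gene's own spread had no weight in its p-value. SE is the log2 fold change divided by the root of F. The interval given for *alas1* used the 3 residual degrees of freedom, unlike its p-value. DESeq2 1.42.0 was an alternative. Shares were compared after thinning to 500 UMIs; values between libraries have exact Poisson intervals and no test. Python 3.11.15, numpy 2.4.6, scipy 1.17.1, pandas 2.3.3 and matplotlib 3.10.9 were used.

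On simulated counts for the comparison of gated nuclei with the rest (18733 genes), the test recovered 76% of 50 genes changed by log2 1, 100% at 2, 62% at -1 and 84% at -2. The simulation gave all genes the same spread, the median of the fitted trend, and gave each changed gene the same change in every library. Its recovery therefore does not cover genes whose excess differs between libraries, as that of *hmbsb* did.

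The genes and lists were chosen with earlier results of these data known. Text names all 10 genes, of each list up to 3 called genes with the largest and 2 with the smallest fold change, and the 5 genes most like *alas2* and *alas1*; other list genes named were chosen after their values were seen. Classes need 2 UMIs over 3 genes of a cell type. The cardiomyocyte minimum of 20 UMIs, the dropping of a mural class, the tests of the gated excess between groups, the thinned gate and the rest without gate UMIs were added after values were seen. The values of 1 list gene that this rule names are not reported here.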

Additional observations from a re-analysis of the deposited data

Results flagged for a closer look

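The gated excess of *hmbsb* was called different between genotypes in a test of the difference itself, by a log2 value of -1.44 for mutant minus WT. The p-value of that test did not use the gene's own spread between libraries, which are not replicates of a genotype. The mutant 3dpa library gave 0 of its gated UMIs, and the call was lost in 3 of the 4 fits that left out 1 library.

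*alas2* was also present in barcodes outside the kept nuclei, which no comparison used. It stood at 139 CPM (95% interval 120.2 to 159) in 3220 left-out barcodes of mutant 3dpa, 699 CPM (684 to 715) in 25552 of mutant UI and 681 CPM (642 to 722) in 1773 of WT 3dpa. In the 131 left-out barcodes of WT UI, the library without injury or mutant label, it stood at 53.8 CPM (26.9 to 96.3). In mutant UI, 4107 of the left-out barcodes had at least 2 gate UMIs, against 1298 of the kept nuclei. The cause was not tested.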

How the results depend on the processing

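No paired analysis was possible because the numbers L001 to L004 in the sample titles are absent from the matrices, which hold 1 library per group. Among the fits with the library block, 5 to 9 of the 10 genes were called higher. DESeq2 called 5 (*hmbsb* adjusted p 0.150; *urod*, *cpox* and *ppox* had none), leaving out 1 library in turn gave 5 to 9, and no block gave 0. A gate of 1 UMI left *ppox* at adjusted p 0.103. Of 167 single log2 fold changes under alternatives, 152 kept their side of the threshold and 15 lost the call; 3 changed sign, all of *alas1*, which was not called. List genes called higher numbered 31, against 19 with DESeq2 and 0 without the block. List genes called lower numbered 2, against 1 with a gate of 1 UMI, 1000 UMIs, DESeq2 or no filter, 0 with a gate of 3 UMIs, 2 gate genes, scrublet removal, no TMM or no block, 8 with other-gate nuclei removed or a thinned gate, and 0 to 1 leaving out a library.

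Gated shares (mutant 3dpa, mutant UI, WT 3dpa, WT UI) were 8.04%, 37.5%, 45.0% and 11.3% with a gate of 1 UMI, 0.339%, 5.39%, 13.9% and 1.94% with 3 UMIs, 0.503%, 8.35%, 16.5% and 2.36% with 2 genes, 0.507%, 6.63%, 11.5% and 0.692% with other-gate nuclei removed, and 0.525%, 6.14%, 11.8% and 1.15% with a thinned gate. With up to 10% mitochondrial UMIs they were 15.2% in mutant UI and 23.96% in WT 3dpa.

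Genes at least 2-fold higher in WT 3dpa over WT UI (7) numbered 4 with a gate of 1 UMI or 1000 UMIs, and 3 with other-gate nuclei removed (*alas1* -0.33, *cpox* -0.28, *uros* -0.20 and *urod* -0.14) or a thinned gate. For mutant 3dpa over UI, the 1 higher became 0 with a gate of 1 UMI or 2 genes, and the 4 lower became 2 with other-gate nuclei removed and 7 with a pseudocount of 1. For mutant over WT in UI, the 2 higher became 4 with 3 UMIs, 0 with other-gate nuclei removed and 5 with a pseudocount of 1, and the 0 lower became 3 with other-gate nuclei removed. For mutant over WT at 3dpa, the 1 higher became 0 with a gate of 1 UMI, 2 genes, TMM or the own gene table. The causes were not tested. The 164369 UMIs of gated mutant 3dpa nuclei limit what can be seen there.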
